A study of Mus musculus with 45 samples.

Results

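ERVK elements are endogenous retroviruses whose copies are scattered through the mouse genome, each built from an internal region with a long terminal repeat (LTR) at either end or left as a solitary LTR. The repeat tables of these RNA-seq experiments summed reads over all copies of 1146 repeat families. Of the 285 families annotated as ERVK, the 255 described here remained after leaving out 25 whose names start with IAP and 5 whose names start with ETn, MMETn or RLTRETN. They comprised 32 internal regions and 223 LTR families. By name start, the larger groups were RMER (46 families), RLTR13 (23), ERVB (21), MLTR (17), RLTR20 (16), RLTR9 with MMERVK9 (15) and RLTR10 with MMERVK10 (13), and 80 families fell in none of the named groups. Because reads of all copies were added up, a value belongs to a family and to no single position in the genome.

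In mouse embryonic stem cells (mESCs), most ERVK copies are held silent by KRAB zinc-finger proteins that recruit TRIM28 and SETDB1, which deposit H3K9me3, together with DNA methylation. EHMT2 (G9a) works with EHMT1 to place H3K9me2 and is known above all for silencing MERVL, an ERVL element, and the genes of the 2-cell-like state. MMERVK10C is among the intact ERVK families known to be released when TRIM28 or SETDB1 is lost. Several solitary ERVK LTRs, such as RLTR9E, RLTR17 and RLTR13D6, are known as binding sites of pluripotency factors in mESCs, and RLTR13D5 as an enhancer in trophoblast cells.

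The series held 45 libraries in 15 groups of 3. In the time course, mESCs of the BL6/129 line EHMT2-dTAG-mcherry, in which both Ehmt2 alleles carry a degron, received DMSO or the degrader dTAG for 24 h or 7 d. In the washout experiment, the same line received DMSO or dTAG for 15 d, or dTAG for 7 d followed by 8 d without it (washout). The 3 libraries of each of these groups were 3 clones of that line, and the DMSO cells carried the same tagged alleles. In the sorting experiment, the derived line EHMT2-dTAG-mcherry-mervl-gfp received DMSO or dTAG for 72 h and was sorted into GFP+ cells, the 2-cell-like cells (2CLCs), and GFP- cells, with a MERVL reporter as the gate. In the Dppa4 experiment, 3 clones each of the WT line WTJ1 and of DPPA4KO, deleted for Dppa4 by CRISPR/Cas9, received DMSO or the EHMT1/2 inhibitor UNC0638 for 48 h. All cultures were kept in serum and LIF, and the study's methods describe culture on feeder fibroblasts.

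The repeat tables held 1 mean of normalized counts per group, except in the Dppa4 experiment. Values of the other 3 experiments are given as the authors' means, without an error or a test, and a difference is the log2 of (first mean + 1) / (second mean + 1) for families with a mean of at least 10 in either group. The Dppa4 experiment held a normalized count for each of its 12 libraries, with 8399885 to 12710949 reads on genes and 313737 to 807204 on repeats. There, limma was fitted over the 783 repeat families that passed a filter on low counts, 217 of them members. The other 38 members did not pass and were not tested. Each experiment was normalized on its own, so that levels are compared within an experiment only, and since values are not per length, levels are not compared between families.

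Dppa4 had 700.4, 868 and 920.5 normalized counts in WT DMSO libraries and 0 reads in all 6 libraries of the deleted line, where 0 allows up to 3 reads per library. Ehmt2 mRNA was 622 in DMSO and 582 in dTAG at 7 d, but the degron acts on the protein, so this does not check the treatment. The summed level of 9 markers of 2-cell-like cells was 755 in GFP- and 133553 in GFP+ cells under DMSO. Zscan4c, which is among these markers, was at 255 and 44464. Markers of feeder fibroblasts were detected in every group. In the time course, the 9 of them summed to 2117 to 4296, the 8 pluripotency markers to 60572 to 83543, the 6 trophoblast markers to 346 to 508 and the 7 primitive endoderm markers to 274 to 482. The same sums were 3153 to 7286, 52644 to 65757, 195 to 257 and 348 to 671 in the washout experiment. In the sorting experiment they were 410.3 to 1838, 28649 to 50717, 147 to 215 and 173 to 533. In bulk RNA, more cells of a type and more RNA per cell cannot be told apart.

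A pair of libraries of the Dppa4 experiment stood apart because of a member. RLTR17B_Mm, an LTR family, had 151381 normalized counts in Dppa4 KO DMSO replicate 3 and 76436 in Dppa4 KO UNC0638 replicate 2, and between 305 and 12475 in the other 10. The members together took 32.3% and 21.3% of the repeat reads in these 2 libraries and 6.62% to 9.97% in the other 10. Counts that use the KO groups are therefore given with both and, as an alternative chosen after the data were seen, without both. Dppa4 KO UNC0638 replicate 3 had the lowest share of its reads on repeats, 2.41% against 2.91% to 5.99% in the other 11, and it differed from replicates 1 and 2 of its group by a chi-square per degree of freedom of 54.6 and 47.2, where no other pair of replicates exceeded 26.2.

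Across the pairs of group means, the medians of the ERVK families and of all repeats lay furthest apart in GFP+ against GFP- cells under DMSO, at 1.52 and 1.38. The plot of log2 ratios shows every member kept.

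**Figure D1:**
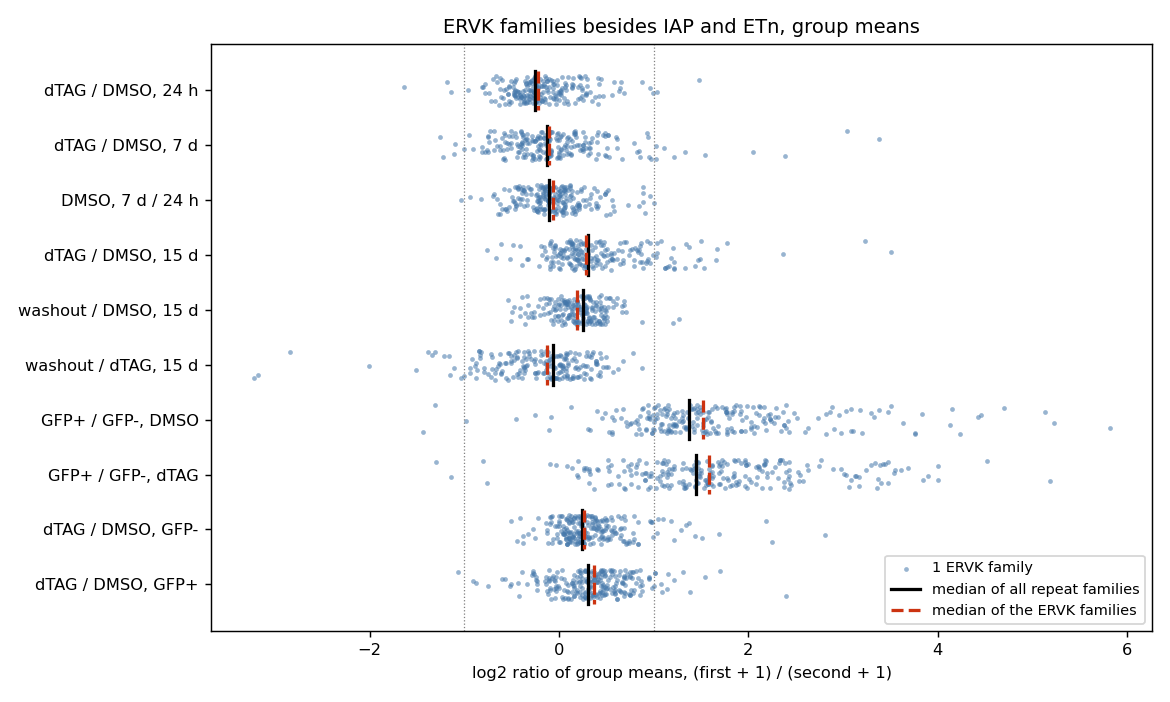
Log2 ratio of the authors' group means for each ERVK family besides IAP and ETn (points), in 10 pairs of groups. The solid and dashed bars mark the medians of all repeat families and of these ERVK families, and the dotted lines mark 2-fold. The medians lie close together in every pair, and lie between 1.38 and 1.58 where GFP+ cells are set against GFP- cells.

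After 24 h of dTAG, few members were past 2-fold. Of 212 members kept, 2 were higher and 3 lower by at least 2-fold, beside 0.800% and 1.60% of all repeat families. The median was -0.22 for members and -0.26 for all families, and after centring each group on the repeat median the counts were 5 and 1, beside 1.73% and 0.800%. The members at the high end among those with a mean of at least 50 were ERVB3_1-I_MM-int (22.1 to 63.5), RLTR10D2 (35.5 to 73.7), ERVB4_2-LTR_MM (25.8 to 52.2) and RLTR45-int (296 to 578). At the low end were RLTR16C_MM (51.5 to 22.8) and RLTR26D_MM (67.8 to 40.1). In the same groups the sum of the 2-cell-like markers was 181 and 2129.

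At 7 d, RLTR45-int, ERVB4_2-LTR_MM and RLTR10D2 had the highest ratios of the members with a mean of at least 50. RLTR45-int, an internal region, was at 241 in DMSO and 2525 in dTAG, a log2 ratio of 3.38. Its LTR, RLTR45, was at 111 and 242. ERVB4_2-LTR_MM, an LTR of a betaretrovirus-like element, was at 18.6 and 160.0 (log2 ratio 3.04), and the internal region of the same element, ERVB4_2-I_MM-int, at 78.1 and 326 (2.05). RLTR10D2 went from 23.3 to 126 and RLTR13B2 from 36.3 to 108. Thus both parts of the RLTR45 and ERVB4_2 elements were higher, and the internal region led in the first and the LTR in the second.

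In all, 10 of 213 members were higher past 2-fold at 7 d, against 3.48% of all repeat families, and 5 were lower, against 2.54%. After centring these counts were 14 and 2, beside 4.15% and 1.61%. The highest log2 ratio was 3.38 among members and 3.98 among all families. The members at the low end were RLTR10D (146 to 67.9), RLTR20B2 (54.2 to 27.5) and RLTR25B (501 to 285), with 3 abundant LTR families taken up below. By group, the medians ran from -0.35 in the 15 RLTR20 families kept to 0.93 in the 5 RLTR44 families and 2.25 in the 2 RLTR45 families, leaving aside groups with 1 family kept. The 39 RMER families kept, mostly old LTRs spread widely over the genome, had a median of -0.12 and none past 2-fold. Among IAP families 2 of 20 were higher past 2-fold, and IAPEy-int, named after its values were seen, went from 31.2 to 138.

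The markers of other cells moved in the same groups. The 2-cell-like marker sum was 295 in DMSO and 6476 in dTAG at 7 d, and the feeder marker sum 2117 and 4296. Their part in the members' values was not tested. Between DMSO at 24 h and at 7 d, where no degrader was present, 0 members were higher and 1 lower past 2-fold of 213, beside 0.132% and 0.923% of all families. After centring, 3 members were higher and 0 lower, beside 0.660% and 0.396%. RLTR45-int was at 296 and 241 in these DMSO groups and RLTR13B2 at 70.7 and 36.3. The DMSO mean against which RLTR13B2 was set at 7 d was thus lower than that of 24 h.

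At 15 d, 27 of 199 members were higher past 2-fold and 0 lower, beside 12.1% and 0.298% of all repeat families. The medians of members and of all families were 0.29 and 0.30, and centring on the repeat median left 14 higher and 1 lower, beside 6.25% and 0.595%. ERVB4_2-LTR_MM was at 12.7 in DMSO and 129 in dTAG. RLTR45-int was at 158 and 817, and RLTR45 at 49.4 and 115. Next came ERVB4_1B-I_MM-int (33.8 to 86.8), MLTR31F_MM (21.4 to 51.0) and ERVB4_2-I_MM-int (47.6 to 109.6). Many of the 27 were low families: 18 of them fell out when a mean of at least 50 was asked for, which left 9. That count is given for members only, without a share of all repeat families.

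The time course and the washout experiment used separate libraries and separate DMSO groups. Of the 10 members higher past 2-fold at 7 d, 8 (80.0%) were also past 2-fold at 15 d, and they made up 29.6% of the 27 at 15 d. Among all repeat families, 21 of 26 (80.8%) at 7 d were also among the 81 at 15 d, of which they made up 25.9%. The 8 members were RLTR45-int, RLTR45, both ERVB4_2 families, RLTR10D2, RLTR13B2, BGLII_Mur and RLTR9A3A, the last 2 chosen for naming after their values were seen. The spread between clones was not analysed here for either experiment.

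After washout, the median member lay 0.19 above DMSO on the log2 scale and at -0.12 relative to dTAG. In all, 146 of 189 members lay above DMSO, beside 528 of 646 of all families. The medians of all families were 0.26 and -0.06. Of the 27 members that were higher at 15 d of dTAG, all 27 had a lower mean after washout than in dTAG, and 26 were within 2-fold of DMSO. The exception was RLTR13D3 (4.60 in DMSO, 16.6 in dTAG and 12.4 after washout), which was likewise chosen for naming after its value was seen. RLTR45-int went from 817 to 113, below its DMSO mean of 158. ERVB4_2-LTR_MM went from 129 to 12.9, and RLTR10D2 from 35.3 to 11.8 against 11.6 in DMSO. These comparisons share the DMSO and dTAG means of 15 d by which the 27 were picked, so that the choice itself favours a lower value after washout. The return of the 81 repeat families past 2-fold at 15 d was not counted, so a return particular to the members is not shown.

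Over all members kept, 2 of 189 were higher and 0 lower than DMSO past 2-fold after washout, beside 1.24% and 0% of all families, and 1 and 0 after centring, beside 0.310% and 0%. Against dTAG at 15 d, 0 were higher and 13 of 200 lower, beside 0.442% and 6.04%, and 0 and 12 after centring, beside 0.884% and 5.01%. The member at the high end against DMSO with a mean of at least 50 was RMER16-int (616 to 1007). The 2-cell-like marker sums were 502 in DMSO, 11836 in dTAG and 813 after washout, and the feeder sums 6729, 7286 and 3153. What part these shifts had in the members' levels was not tested.

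**Figure D2:**
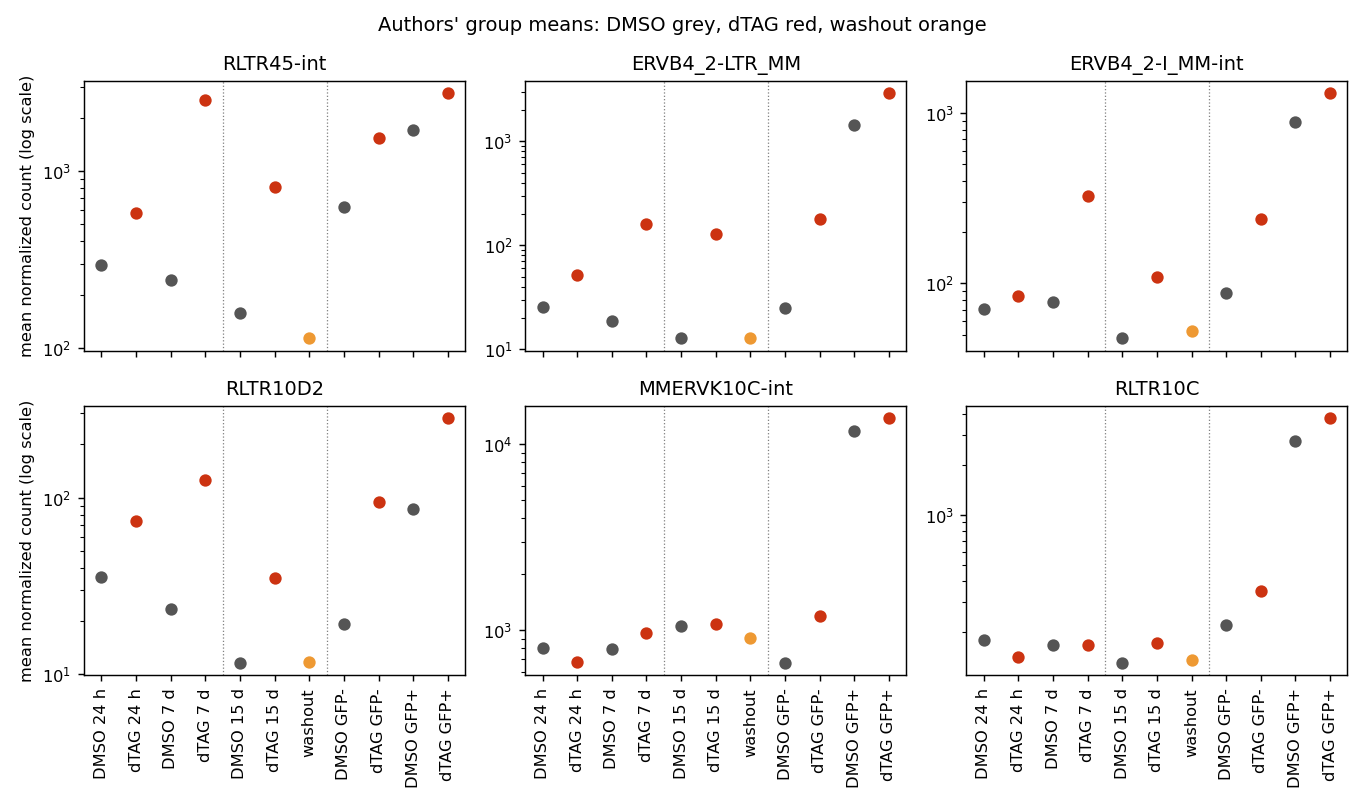
Authors' mean normalized count (log scale) of 6 ERVK families in the 11 groups of the time course, washout and sorting experiments, which dotted lines separate. RLTR45-int, both ERVB4_2 families and RLTR10D2 are higher in each dTAG group than in its DMSO group and near DMSO after washout, while MMERVK10C-int and RLTR10C are high mainly in GFP+ cells.

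In 2CLCs most repeat families, ERVK or not, had higher means than in GFP- cells. Under DMSO, 192 of 238 members were higher past 2-fold and 2 lower, beside 67.8% and 0.540% of all repeat families. The median log2 ratio was 1.52 for members and 1.38 for all families. Set against that shift, 40 members were higher and 10 lower past 2-fold, beside 16.6% and 7.78%. Under dTAG, 186 of 240 were higher and 2 lower (67.1% and 0.642% of all families), with 39 and 21 after centring (18.4% and 13.3%).

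Under DMSO, ERVB4_2-LTR_MM had the largest ratio of the members with a mean of at least 50. It was at 24.7 in GFP- and 1445 in GFP+ cells, a log2 ratio of 5.81, and at 179 and 2897 under dTAG (4.01). ERVB4_3-LTR_MM was at 0.932 and 71.6, RLTR12F at 0.542 and 52.9, and RLTR9A3A at 10.1 and 287 under DMSO. RLTR13B2 went from 23.9 to 468. The ERVB families had the highest group median, 2.44, with 17 of 20 past 2-fold, followed by RLTR9 with MMERVK9 (2.16) and RLTR10 with MMERVK10 (2.11). The RLTR20 families had the lowest median of the groups with more than 5 families kept (1.00). IAP families had a median of 2.47 and ETn families one of 0.01.

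MMERVK10C-int, the internal region of the intact MMERVK10C elements, went from 666 in GFP- to 11833 in GFP+ cells under DMSO, and its LTR, RLTR10C, from 220.3 to 2753. These are log2 ratios of 4.15 and 3.64. Under dTAG the same families were at 1191 and 13841, and at 349 and 3794. In unsorted cells neither passed 2-fold with dTAG. MMERVK10C-int was at 797 in DMSO and 973 in dTAG at 7 d, and at 1056 and 1085 at 15 d. RLTR10C was at 166 and 167, and at 129 and 170.5. In GFP- cells their dTAG over DMSO log2 ratios were 0.84 and 0.66, where the median of all repeats was 0.24.

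The LTRs known as binding sites of pluripotency factors, or as an enhancer in trophoblast cells, differed among themselves. RLTR13D5 was at 36.0 in GFP- and 312 in GFP+ cells under DMSO, and RLTR13D6 at 63.5 and 507, log2 ratios of 3.08 and 2.98. RLTR9E was at 308 and 596 (0.95) and RLTR17 at 337 and 854 (1.34), at or below the shift of all repeats. RMER19B (1259.5 to 3448) and BGLII (197 to 588) were close to it as well. None of these 6 LTR families passed 2-fold between dTAG and DMSO at 24 h, 7 d or 15 d, with log2 ratios from -0.51 to 0.94, both ends being RLTR17.

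As a share of all normalized repeat counts, the members went from 7.27% in GFP- to 3.51% in GFP+ cells under DMSO while their sum went from 48909 to 117619. In the same groups MERVL-int, whose reporter set the gate, went from 6891 to 1643468, and the sum over all repeats from 672666 to 3352115. Feeder marker sums were 410.3 and 1032.

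Within the gates, several members high in unsorted dTAG cells were again at the high end. In GFP- cells 14 of 227 members were higher past 2-fold and 0 lower, beside 6.21% and 0% of all families, and 9 and 0 after centring, beside 3.75% and 0.234%. ERVB4_2-LTR_MM went from 24.7 to 179, RLTR10D2 from 19.2 to 94.7, RLTR13B2 from 23.9 to 112, ERVB4_2-I_MM-int from 87.6 to 239.6 and RLTR45-int from 629 to 1539. RLTR51B_Mm, another LTR, went from 25.2 to 65.2. The 2-cell-like marker sum in GFP- cells was 755 in DMSO and 8439.6 in dTAG, and the feeder sum 410.3 and 835. MERVL-int was at 6891 and 78865, and the part of these in the members' values was not tested.

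In GFP+ cells 13 of 240 members were higher and 1 lower past 2-fold with dTAG, beside 6.69% and 0.849%, and 4 and 4 after centring, beside 2.34% and 2.34%. RLTR10D2 went from 86.3 to 282, a log2 ratio of 1.70. ERVB4_3-LTR_MM went from 71.6 to 189, RLTR51B_Mm from 255 to 593 and MMERVK10D3_I-int, an internal region related to MMERVK10C by name, from 1032 to 2282. RLTR45-int was at 1712 and 2759, a log2 ratio of 0.69 against 1.29 in GFP- cells. The internal region of MMTV, the mouse mammary tumour virus, was the 1 member lower past 2-fold (119.9 to 56.6). In the same groups the 2-cell-like marker sum was 133553 and 215051, MERVL-int was at 1643468 and 3256077, and the feeder sum was 1032 and 1838. Their part in the members' values was not tested. The 4 comparisons of the sorting experiment share their 4 group means.

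A few abundant LTR families were lower in 2CLCs, RLTR13G and ERVB7_1-LTR_MM being the 2 members lower past 2-fold under DMSO. RLTR13G went from 9804 in GFP- to 3631 in GFP+ cells under DMSO, ERVB7_1-LTR_MM from 2695 to 1090.0 and ERVB4_1C-LTR_Mm from 1061 to 537. Their log2 ratios were -1.43, -1.31 and -0.98, and under dTAG -1.29, -1.14 and -0.80. RLTR13G also differed between the DMSO groups. It was at 11982 at 24 h and 23298 at 7 d, and at 19217 and 13897 in dTAG. In the washout experiment it was at 13494 in DMSO, 8532 in dTAG and 14721 after washout. Relative to DMSO it was thus higher in dTAG at 24 h and lower at 7 d and 15 d.

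Beside these 3 families, the values of MMETn-int are given, the internal region of an ETn family which the rule left out. MMETn-int was at 92499 in GFP- and 29189 in GFP+ cells, and at 93600.4 and 148473 in DMSO at 24 h and 7 d. In the washout experiment it was at 115041 in DMSO, 71448 in dTAG and 126871 after washout. The plot of the 3 families against MMETn-int shows all groups. Reads that fit several repeat copies had been assigned to 1 random best place, so reads of near-identical LTRs can be split between family names. How far that holds here was not tested.

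**Figure D3:**
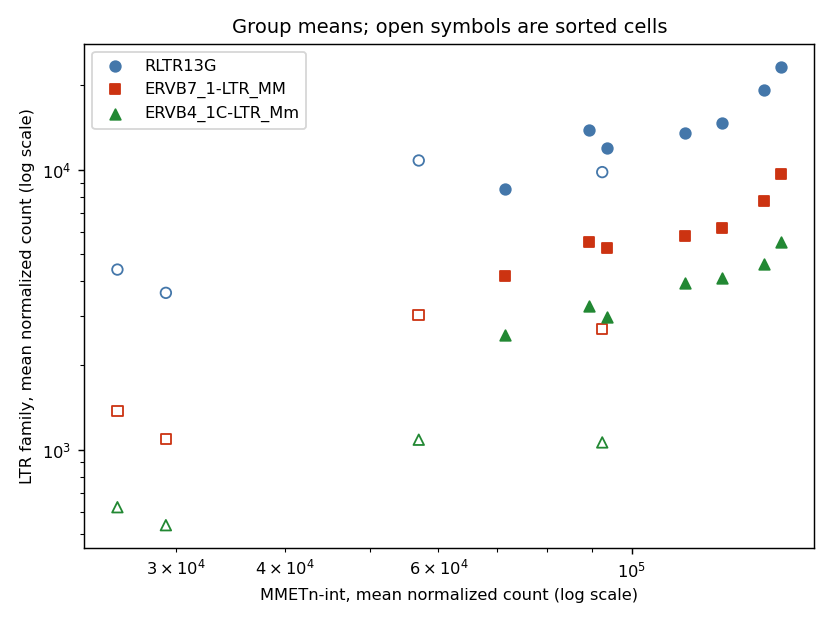
Authors' group means of 3 LTR families against MMETn-int in the 11 groups of the time course, washout and sorting experiments (both axes log scale, mean normalized counts), each experiment normalized on its own. The 2 GFP+ groups, at the left, lie below the 2 GFP- groups in all 3 families.

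In the Dppa4 experiment, 3 libraries a group allowed a test. With UNC0638 in WT cells, 0 of 217 members passed limma's adjusted p of 0.05 with a 2-fold change, beside 0% of all 783 families. edgeR and DESeq2 also called 0 members and 0 families. At an unadjusted p under 0.05, limma had 20 members higher and 1 lower, against 10.7% and 0.128% of all families. edgeR had 19 and 1 (83 and 1 of all 783 families), and DESeq2 22 and 1 (95 and 1). The median of all repeat families was itself up by 0.43. When libraries were centred on that median, 5 members were higher and 5 lower at this p, beside 19 and 25 families. With TMM factors there were 9 and 3, beside 29 and 11. The 20 became 11 without WT UNC0638 replicate 3, beside 37 of 821 families. They became 34 without WT DMSO replicate 3 (107 of 820) and 32 without Dppa4 KO UNC0638 replicate 3 (148 of 811). In 52 members (24.0%) all 3 UNC0638 libraries lay above all 3 DMSO libraries, beside 27.3% of all families, so the members did not stand out from other repeats by count.

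RLTR45-int had the smallest p of the members. Its normalized counts were 123, 145 and 191 in WT DMSO and 548, 395 and 879 in WT UNC0638 (means 153 ± 34.8 and 607 ± 247, SD, n = 3). The groups did not overlap. The log2 fold change was 1.92 ± 0.44 (SE), with an adjusted p of 0.115 by limma, which misses the threshold. Without the 2 libraries high in RLTR17B_Mm, the limma adjusted p was 5.68e-04, where 1 of 797 families was called. Neither is a WT library, and they enter this contrast through the shared spread and the set of families tested. They hold the highest RLTR45-int value of their KO groups, so leaving them out narrows its spread and gives no separate support. RLTR45-int also passed without Dppa4 KO DMSO replicate 3 alone (adjusted p 0.0119), without Dppa4 KO UNC0638 replicate 2 alone (0.0290) and without WT DMSO replicate 3 (0.0280). Leaving out any other single library called 0 members and 0 families. In WT cells the 2-cell-like markers summed to 66.3 to 1410.0 with DMSO and 630.4 to 5461 with UNC0638, and the feeder markers to 3154 to 5539 and 2728 to 3971. Their part in these values was not tested.

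RLTR45, the LTR of that element, had 55.8, 36.9 and 67.3 in WT DMSO and 122, 86.9 and 134 in WT UNC0638 (log2 fold change 1.10 ± 0.36, adjusted p 0.311 by limma). All 3 treated libraries were above all 3 controls. ERVB4_2-I_MM-int had 25.6, 55.4 and 48.1 and 148, 79.4 and 236 (1.76 ± 0.46, limma adjusted p 0.191), again without overlap. For its LTR, ERVB4_2-LTR_MM, the groups overlapped, with 1.16, 4.92 and 49.8 in DMSO and 16.7, 29.9 and 63.9 in UNC0638. RLTR10D2 overlapped too, at 78.0, 27.1 and 57.7 and 152, 57.9 and 71.9. None of these 5 families passed the adjusted threshold with all 12 libraries, as the plot of single libraries shows.

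**Figure D4:**
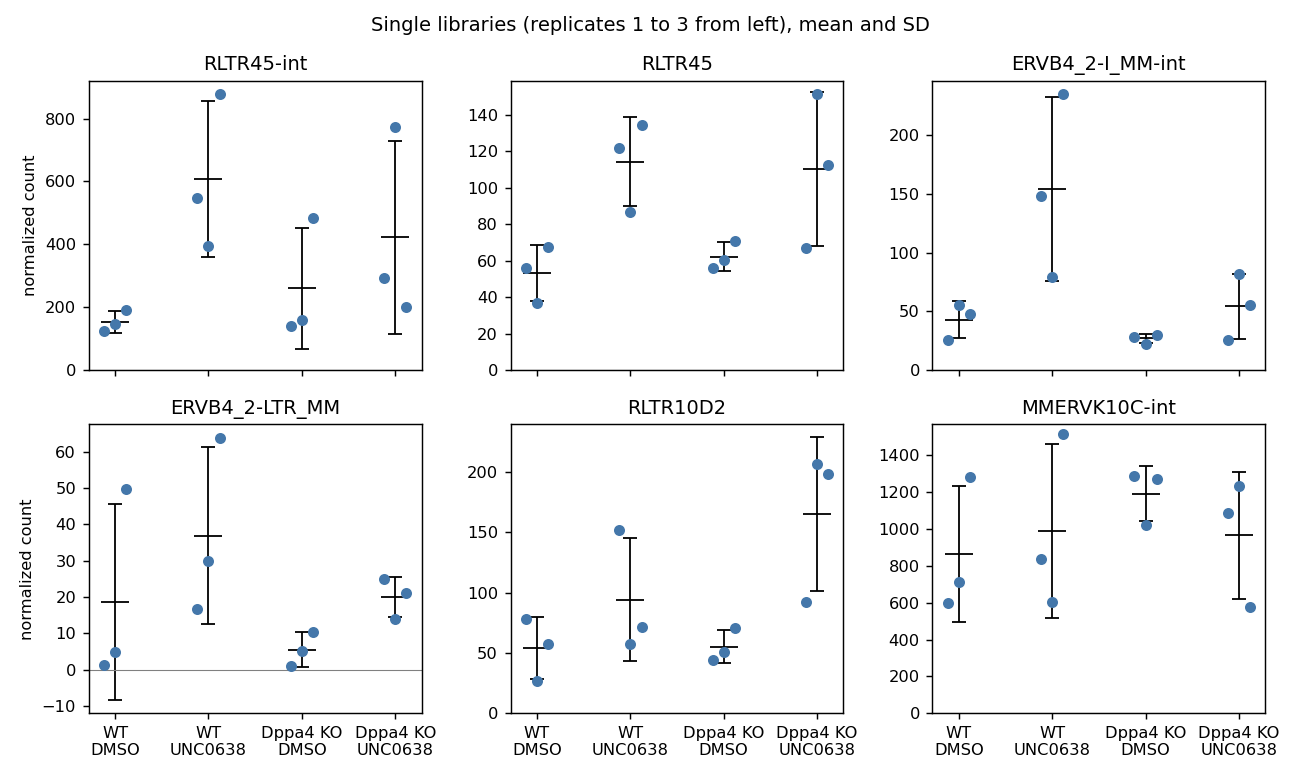
Normalized counts of 6 ERVK families in the 12 libraries of the Dppa4 experiment (points, replicates 1 to 3 from left), with the mean and SD of each group of 3. In WT cells, RLTR45-int, RLTR45 and ERVB4_2-I_MM-int lie higher in every UNC0638 library than in any DMSO library, and MMERVK10C-int overlaps between all 4 groups.

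In the cells without Dppa4, the 2-cell-like markers summed to 0 in the 3 DMSO libraries and to 0 to 3.49 in the UNC0638 libraries, far below WT. With UNC0638 in these cells, 0 of 217 members were called by limma, edgeR or DESeq2, and 0% of all families by limma. Of the 783 families, edgeR called 0 and DESeq2 1. At an unadjusted p under 0.05, limma had 15 members higher and 4 lower, against 4.09% and 1.40% of all families. There were 11 and 5 under TMM (31 and 21 of all 783 families) and 12 and 5 after centring (33 and 20). edgeR had 11 and 3 (26 and 10) and DESeq2 14 and 4 (32 and 12). Without both libraries high in RLTR17B_Mm, limma had 9 and 2 of 221 members, beside 24 and 6 of 797 families. It then called 0 members and 0 families, and the members' median went from 0.10 to 0.03. Leaving out 1 KO library gave 9 and 3 without DMSO replicate 2, beside 26 and 16 of 811 families. It gave 15 and 2 without DMSO replicate 3 (39 and 10 of 817) and 13 and 9 without UNC0638 replicate 1 (31 and 36 of 814). Without UNC0638 replicate 2 there were 5 and 7 (17 and 21 of 819), and without UNC0638 replicate 3 there were 24 and 2 (78 and 8 of 811). In 15 members (6.91%) all 3 UNC0638 libraries were above all 3 DMSO libraries, beside 4.98%.

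ERVB4_2-LTR_MM was one of them. It had 0.978, 5.09 and 10.4 in Dppa4 KO DMSO and 24.8, 14.0 and 21.0 in Dppa4 KO UNC0638, a log2 fold change of 1.98 ± 0.91 with an adjusted p of 0.893 by limma. RLTR10D2 had 44.0, 50.9 and 70.8 and 92.0, 206 and 198 (1.51 ± 0.44, adjusted p 0.571), with no overlap and the smallest p of the members. RLTR45-int overlapped, at 139.9, 158 and 483 and 292, 772 and 202, with the highest value of each group in the libraries that are high in RLTR17B_Mm. RLTR45 had 55.8, 60.1 and 70.8 and 67.1, 152 and 113, and ERVB4_2-I_MM-int 28.4, 22.4 and 30.2 and 25.8, 81.7 and 55.0. Without both libraries high in RLTR17B_Mm, the log2 fold changes were 2.78 for ERVB4_2-LTR_MM, 1.49 for RLTR10D2 and 0.70 for RLTR45-int, with limma adjusted p of 0.836, 0.836 and 0.984. The feeder marker sums were 1494 to 2256 and 1662 to 2935 there.

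The difference between the UNC0638 effects in KO and WT cells was tested directly. It called 0 of 217 members and 0 of 783 families by limma, edgeR and DESeq2. At an unadjusted p under 0.05, 1 member was higher and 7 were lower, beside 0.255% and 4.73% of all families. edgeR had 0 and 5 (1 and 34 of all 783 families) and DESeq2 1 and 6 (5 and 39). TMM gave 3 and 5 (12 and 24) and centring 5 and 3 (18 and 16). Without both libraries high in RLTR17B_Mm limma had 2 and 8 of 221 members, beside 2 and 43 of 797 families. It then called 0 members and 0 families. The 7 lower became 3 without WT UNC0638 replicate 1, beside 20 of 819 families. They became 4 without Dppa4 KO DMSO replicate 3 (27 of 817) and 11 without Dppa4 KO DMSO replicate 2 (63 of 811). They became 15 without Dppa4 KO UNC0638 replicate 1 (77 of 814) and 14 without Dppa4 KO UNC0638 replicate 2 (68 of 819). For RLTR45-int the difference was -1.23 ± 0.62 (adjusted p 0.787 by limma) and for ERVB4_2-LTR_MM 0.06 ± 1.29 (0.990). These errors leave room for equal as well as for different effects.

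Between genotypes under DMSO, 0 of 217 members were called by limma, edgeR or DESeq2, beside 0.639% of all families by limma. Of the 783 families, edgeR called 5 and DESeq2 9. At an unadjusted p under 0.05, 7 were higher and 7 lower in KO cells (3.07% and 3.58% of all families). There were 10 and 7 under TMM (30 and 36 of all 783 families) and 7 and 10 after centring (22 and 49). edgeR had 9 and 5 (25 and 24) and DESeq2 7 and 6 (27 and 23). Without both libraries high in RLTR17B_Mm, limma had 3 and 8 of 221 members, beside 18 and 40 of 797 families. It then called 0 members and 10 of the 797 families. Leaving out 1 library gave 3 and 6 without WT DMSO replicate 2, beside 17 and 24 of 817 families. It gave 6 and 4 without KO DMSO replicate 1 (19 and 29 of 810), and 2 and 8 without KO DMSO replicate 3 (15 and 36 of 817). Under UNC0638, limma and edgeR called 0 members and DESeq2 1. Among all 783 families, limma called 1.28%, edgeR 10 and DESeq2 18. Here 3 members were higher and 21 lower at an unadjusted p under 0.05, beside 1.15% and 11.7%. edgeR had 4 and 16 (12 and 72 of all 783 families) and DESeq2 4 and 18 (10 and 84). The 21 became 8 without WT UNC0638 replicate 1, beside 50 of 819 families. They became 7 without WT UNC0638 replicate 3 (41 of 821) and 10 without Dppa4 KO UNC0638 replicate 3 (56 of 811). Without both libraries high in RLTR17B_Mm 1 was higher and 29 lower, beside 10 and 127 of 797 families. The split went to 11 and 9 under TMM (36 and 54 of all 783 families) and 13 and 9 after centring (37 and 51). The median over all families was -0.34 before centring. The feeder markers summed to 3154 to 5539 in WT DMSO and 1494 to 2256 in KO DMSO libraries, and their part in the genotype differences was not tested.

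The member that DESeq2 called, among 18 of 783 families, was ERVB4_2-I_MM-int, lower in KO cells. Its values with UNC0638 were 148, 79.4 and 236 in WT and 25.8, 81.7 and 55.0 in KO cells, which overlap in 1 pair of libraries. The limma log2 fold change was -1.50 ± 0.46 with an adjusted p of 0.127. Without the 2 libraries high in RLTR17B_Mm, limma called 3 of 221 members lower in KO cells with UNC0638, beside 16 of 797 families. They were ERVB4_2-I_MM-int, ERVB4_1B-I_MM-int and RLTR45-int. The KO UNC0638 library left out, replicate 2, held the highest KO UNC0638 value of ERVB4_2-I_MM-int (81.7) and of RLTR45-int. Leaving it out, a choice made after the data were seen, itself lowers their KO level. These calls are therefore no separate support. Leaving out Dppa4 KO UNC0638 replicate 1 alone gave 1 call, RLTR13D1, named for that reason, beside 13 of 814 families.

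MMERVK10C-int overlapped between all 4 groups. It had 598, 712 and 1283 in WT DMSO, 839, 605 and 1515 in WT UNC0638, 1284, 1019.9 and 1269.9 in KO DMSO and 1086, 1231 and 575 in KO UNC0638. RLTR10C ranged from 83.9 to 193 over the 12 libraries. RLTR13G had 4533, 7748 and 9864 in WT DMSO and 9670.5, 7138 and 11978 in WT UNC0638, and 5205, 4483 and 5972 and 5127, 6129 and 7563 in KO cells. RMER19B was at 740.0, 747 and 689 in WT DMSO and 1001, 822 and 878 in WT UNC0638, with no overlap.

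The 10 members with the most counts in WT DMSO, a choice that favours long families and gives no order of expression, were RLTR13G (7381 ± 2684, SD, n = 3), RLTR17B_Mm (6384 ± 5408), ERVB7_1-LTR_MM (1737 ± 1004), RLTR19-int (1549.7 ± 242), RMER16-int (1060.2 ± 139.6), MMERVK10C-int (864 ± 367), RMER19B (725 ± 31.6), MMERVK9C_I-int (501 ± 243), RLTR10-int (439.6 ± 22.2) and RMER6A (402 ± 60.7). The spread between libraries was wide for many members. Over the 217 tested, the highest of the 12 libraries exceeded the lowest by a median of 4.03-fold, with 1 added to each value. The 12 libraries span both genotypes and both treatments, so this range is not the spread between clones alone.

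RLTR17B_Mm had by far the widest range, 305 to 151381 normalized counts. In WT DMSO it had 12475, 4531 and 2147 and in WT UNC0638 3098, 3505 and 418. In KO DMSO it had 875, 8335 and 151381 and in KO UNC0638 11846, 76436 and 305. All 4 groups overlap, and in none of the 5 contrasts did it approach the threshold (smallest unadjusted limma p 0.19). RLTR17D_Mm, RMER12 and RLTR20C1_MM, chosen after their values were seen, were also high in these libraries. In KO DMSO they were at 67.5, 115 and 1261, 122, 92.7 and 941 and 90.0, 105 and 497, and in KO UNC0638 at 141, 736 and 51.5, 219.8, 669.8 and 89.9 and 110.4, 355 and 28.8. RLTR17 itself was not, with 297, 261 and 311 and 369.7, 272 and 189. In the other experiments RLTR17B_Mm was between 357 and 2888, each in its own normalization.

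**Figure D5:**
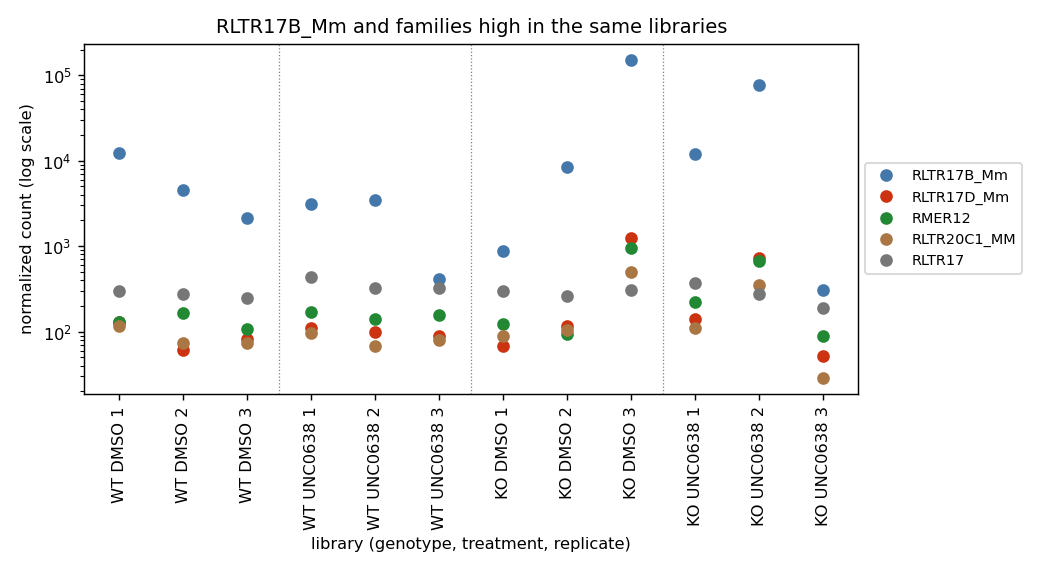
Normalized counts (log scale) of RLTR17B_Mm, of 3 families that are high in the same libraries, and of RLTR17, in the 12 libraries of the Dppa4 experiment. RLTR17B_Mm reaches 151381 and 76436 in 1 DMSO and 1 UNC0638 library of the Dppa4 KO line, where RLTR17 stays between 272 and 311.

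A list of 32 repressors and readers of chromatin was drawn up for a part in ERVK silencing. Zfp462 is on it, although the paper places ZFP462 with EHMT2 at germ layer genes, on candidate enhancers outside repeats. The paper also reports LTR enrichment in the group of EHMT2 binding sites that featured ZFP462. All 32 were expressed in the time course, washout and sorting experiments at a mean of at least 10. Between dTAG and DMSO their log2 ratios ran from -0.24 (Setdb1) to 1.02 (Dnmt3a) at 24 h, from -0.29 (Suv39h1) to 0.68 (Dnmt3b) at 7 d, and from -0.58 (Dnmt3l) to 0.55 (Mphosph8) at 15 d. From DMSO at 24 h to DMSO at 7 d, without degrader, the ratios ran from -0.23 (Setdb1) to 1.10 (Dnmt3b). After washout against DMSO they ran from -0.35 (Trim28) to 1.15 (Atrx). Between DMSO and dTAG, Trim28, the corepressor that KRAB zinc-finger proteins bind, was at 11602 and 14533 at 7 d. Setdb1, the H3K9me3 methyltransferase, was at 1379.6 and 1432. In GFP+ against GFP- cells under DMSO the range was from -1.09 (Zfp462) to 1.17 (Zfp708). Trim28 was at 7056 and 10262, and Setdb1 at 782 and 1011.

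In the Dppa4 experiment, limma over 17258 genes called 0 of the 32 with UNC0638 in WT cells (0% of all genes, with 1 of the 32 at an unadjusted p under 0.05) and 0 in KO cells (0.464%, with 4). It also called 0 for the difference between these effects (0%, with 5). Between genotypes it called 1 lower in KO cells under DMSO, beside 4.43% of all genes, and 4 lower under UNC0638, beside 3.29%. Dnmt3b, a DNA methyltransferase, was lower in both, with 1415, 2261 and 1861 in WT and 564, 941 and 1158 in KO DMSO libraries. Its log2 fold changes were -1.09 ± 0.28 and -1.22 ± 0.28 (SE, limma adjusted p 0.0287 and 0.0215). The others under UNC0638 were Cbx5, which encodes HP1α, Zfp462, and Gm15446, a KRAB zinc-finger gene, with 24.7, 15.9 and 34.3 in WT and 4.60, 0 and 0.873 in KO libraries. All 32 were tested, and the calls for genotypes share their WT and KO clones with those for UNC0638.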

How the data were processed

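Per the study's methods, the authors trimmed reads with Trim Galore 0.6.7 and aligned them to mm10 with STAR 2.7.10, assigning a read with several best places to 1 of them at random. Reads were summed per gene and per repeat family, and the deposited tables hold these as normalized counts, a signal scaled by DESeq2 1.34.0 size factors within each experiment. The time course, washout and sorting tables give 1 mean for each group and hence no depth or spread. The Dppa4 tables give 12 libraries. In these, 100% of values came back as whole reads within 0.01 of a read, with 8399885 to 12710949 reads on genes and 313737 to 807204 on repeats per library. Intervals on counting error were not needed, since tests rest on the spread between clones.

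Repeats were tested with limma 3.58.1 (R 4.3.3) on log2(normalized count + 1), with trended variance and Benjamini-Hochberg adjustment within each of 5 contrasts, after a filter on low counts. A call needed an adjusted p under 0.05 and a 2-fold change. Fold changes on this scale understate the change of low families. All 4 groups entered 1 fit. Group means were compared as log2 ratios with 1 added, for families with a mean of at least 10. Alternatives were edgeR 4.0.16 and DESeq2 1.42.0 on the recovered reads, TMM factors, centring, other pseudocounts and filters, a replicate block and leaving out each library. The code was tested on simulated data.

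The ERVK families, groups and gene lists were chosen with earlier results of these data known. Named families were a set list, the 10 with the highest WT DMSO mean, called members, and the 6 highest and 6 lowest of each pair of means at a mean of at least 50, from which the text takes examples. RLTR1IAP_MM, on that list, was not analysed here. Deposited tables of the authors' own comparisons (fold changes and p-values) were not used, among them a table with 12 columns of single samples. Per the study's methods the bulk libraries were stranded and selected for poly(A), and low-input kits were used after sorting.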

Additional observations from a re-analysis of the deposited data

How the results depend on the processing

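Limits come first from the tables: the time course, washout and sorting experiments have 1 mean per group, and differences there were not set against a spread, and low families decide several counts. The Dppa4 experiment has 3 clones per group, with a median 4.03-fold span over the libraries of all groups together. It left 38 members untested.

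The counts from pairs of means moved with centring and with the filter on low means. When centred on the repeat median, members higher and lower past 2-fold went from 2 and 3 to 5 and 1 at 24 h, from 5 to 2 lower at 7 d, from 0 and 1 to 3 and 0 between the DMSO groups, from 27 and 0 to 14 and 1 at 15 d, and from 2 to 1 higher after washout against DMSO. For GFP+ against GFP- cells they went to 40 and 10 under DMSO and 39 and 21 under dTAG, and for dTAG against DMSO to 9 higher in GFP- and 4 and 4 in GFP+ cells. With a mean of at least 50 there were 1 lower at 24 h, 1 lower at 7 d, 0 lower between DMSO groups, 9 higher at 15 d, 0 higher after washout against DMSO, 5 lower after washout against dTAG and 8 higher in GFP- cells. With no filter there were 1 higher and 3 lower between DMSO groups, 6 higher and 1 lower after washout against DMSO, 1 higher and 21 lower after washout against dTAG, and 3 lower in GFP- cells. A pseudocount of 5 gave 1 higher at 24 h, 2 lower at 7 d, 0 lower between DMSO groups and 0 higher after washout against DMSO. A pseudocount of 0.5 gave 1 higher between DMSO groups. Counts at these filters and pseudocounts are given for members only and are not set against other repeats.

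In the Dppa4 experiment, leaving out 1 library gave 0 to 1 called members for UNC0638 in WT cells and for KO against WT with UNC0638, and 0 in the other 3 contrasts. Over all families these fits called 0 to 4 for UNC0638 in WT cells. For KO against WT they called 8 to 13 with UNC0638 and 0 to 10 with DMSO. Leaving out both libraries high in RLTR17B_Mm, chosen after seeing the data, gave 1 and 3. DESeq2 gave 1 for KO against WT with UNC0638. The log2 fold change of MMERVK10C-int in WT cells, 0.16, turned to -0.22 with TMM, -0.29 with centring, -0.06 without WT DMSO replicate 1 and -0.20 without WT UNC0638 replicate 3, in a range of -0.20 to 0.49 over the libraries left out. The cause of these shifts was not tested. Replicate numbers were shared by the groups, but deviations of same-numbered libraries correlated at only -0.01 to 0.16 in WT and -0.09 to 0.14 in KO cells, and not every library correlated best with its own number, so the numbers were not taken to pair the clones. A fit with the replicate number as a block called 0 members in all 5 contrasts. Of the 783 families it called 7 for KO against WT with DMSO, 12 with UNC0638 and 0 in the other contrasts. At an unadjusted p under 0.05 it had 23, 16, 13, 23 and 9 members, beside 91, 40, 55, 101 and 40 of 783 families.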
